A study of Mus musculus with 12 samples.

Results

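Type I interferon-stimulated genes were followed over 4 groups of mouse reprogramming samples, with their level on each of 12 arrays. They were a list of 35 gene symbols. A gene was read from its brightest probe set that carries 1 symbol, and 33 of the 35 had one among the 22180 genes tested. Dtx3l had only a probe set shared with Parp9, and Ifi44 had no annotated probe set used here. The list was chosen with the spread between colony arrays and the low level in iPS cells in view, so these features are given as descriptions with no test.

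Type I interferons are secreted proteins that bind the receptor IFNAR on the same or neighbouring cells. The kinases JAK1 and TYK2 on that receptor activate STAT2, which acts in a complex with IRF9 that binds the interferon-stimulated response element in the promoters of antiviral genes. Pluripotent stem cells are known for a weak response to interferon, whereas most differentiated cells, blood and epithelial cells included, respond strongly.

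The samples were established iPS (induced pluripotent stem) cells, GFP- colonies named reprogrammed, GFP+ colonies named partially reprogrammed, and leukemia cells from the spleen, with 3 arrays of total RNA in each group. The iPS cells and the colonies were labelled as derived from leukemia cells, and the titles of the iPS and leukemia samples name Notch-1. All groups, leukemia included, carried the mouse genotype R26rtTA;Col1a12lox-4F2A, which joins a tetracycline-responsive activator with an inducible cassette of reprogramming factors. The labels give neither mouse strain and age, nor what GFP marks, nor any feeder cells, and all leukemia titles carry the same leukemia number. Replicates are called biological with no mention of separate mice or dishes, so a p-value here reflects array-to-array spread only, which may be technical.

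Part of the members' promoters held the core of the element through which interferon acts. The list names interferon-stimulated genes, so such matches were likely in advance and say nothing about these samples. RefSeq promoter windows of build GRCm38.p6, from 250 bases before to 50 bases after an annotated start, were at hand for 27 of the 35 listed genes. The core of the response element (GAAA, any pair of bases, GAAA, on either strand) was found in 11 of these 27 genes (40.7%), against 1079 of 27025 genes in the table (3.99%). The site of STAT dimers, TTCNNNGAA, was found in 6 of the 27 (22.2%), against 9.55% of genes. A match describes letters and not binding. The stretches around the core are shown 5′ to 3′ on the strand of the gene, because they are what these promoters share. Capitals mark the core, which reads TTTC, any pair of bases, TTTC where it lies on the opposite strand.
Ifih1, chr2:62646206-62646233, minus strand: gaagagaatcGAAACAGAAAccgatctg
Ddx58, chr4:40239804-40239833, minus strand: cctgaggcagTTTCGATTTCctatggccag
Stat2, chr10:128270266-128270295, plus strand: cgcaccctggTTTCAGTTTCctttccctag
Ifit1, chr19:34640785-34640814, plus strand: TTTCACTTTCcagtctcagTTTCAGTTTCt
Ifit3, upstream match, chr19:34583363-34583392, plus strand: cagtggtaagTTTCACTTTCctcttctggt
Ifit3, downstream match, chr19:34583397-34583426, plus strand: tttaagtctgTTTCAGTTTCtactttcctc
Eif2ak2, chr17:78882535-78882564, minus strand: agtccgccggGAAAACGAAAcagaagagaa
Rsad2, chr12:26456553-26456582, minus strand: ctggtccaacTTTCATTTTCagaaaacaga
Bst2, chr8:71537580-71537609, minus strand: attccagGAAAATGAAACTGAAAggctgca
Ifitm3, chr7:141010714-141010743, minus strand: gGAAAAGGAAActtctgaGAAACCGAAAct
Isg15, chr4:156200871-156200900, minus strand: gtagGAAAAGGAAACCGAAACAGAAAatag
Trim30a, annotated start 1, chr7:104465210-104465239, minus strand: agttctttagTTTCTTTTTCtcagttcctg
Trim30a, annotated start 2, chr7:104446104-104446133, minus strand: ttgtttttagTTTCTTTTTCtcagttcctg

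Isg15 and Bst2 held overlapping cores, and their whole promoter windows are shown for that reason. Isg15 encodes a ubiquitin-like protein that is attached to other proteins after interferon, and Bst2 encodes tetherin, which holds budding virus particles at the cell surface. Capitals again mark the cores.
Isg15 promoter, chr4:156200769-156201068, minus strand: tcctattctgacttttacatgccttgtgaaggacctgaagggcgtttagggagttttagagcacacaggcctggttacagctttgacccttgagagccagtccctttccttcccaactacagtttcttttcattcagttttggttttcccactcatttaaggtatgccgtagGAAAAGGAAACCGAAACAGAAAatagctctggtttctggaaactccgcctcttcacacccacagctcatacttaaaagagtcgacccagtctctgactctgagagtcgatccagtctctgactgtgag
Bst2 promoter, chr8:71537423-71537722, minus strand: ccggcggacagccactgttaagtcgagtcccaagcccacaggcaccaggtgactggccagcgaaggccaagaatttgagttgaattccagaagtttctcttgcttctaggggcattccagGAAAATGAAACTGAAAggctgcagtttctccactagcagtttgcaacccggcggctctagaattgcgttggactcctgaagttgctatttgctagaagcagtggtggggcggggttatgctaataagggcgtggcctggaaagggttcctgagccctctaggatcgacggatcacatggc
In Isg15, 3 cores overlapped at positions -78 to -57 from the start, and in Bst2 a pair overlapped at positions -130 to -115. Ifit1, Ifit3 and Ifitm3 held 2 separate cores each. The other 16 genes with a window, Oasl1, Oasl2 and Ifit2 among them, had no match within these bases, and no window was at hand for Dhx58, Zbp1, Mx1, Mx2, Rtp4, Usp18, Parp9 and Parp14.

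**Figure D1:**
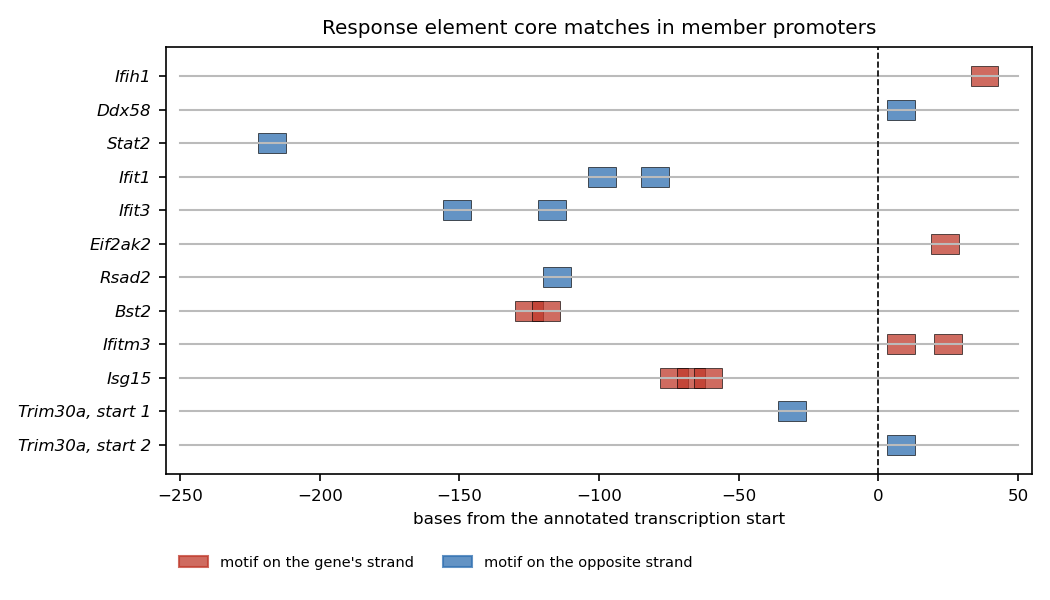
Position of each match to the response element core in the RefSeq promoter windows of 11 members, in bases from the annotated start. Each box is 1 match, coloured by strand; the 3 overlapping boxes of Isg15 lie at positions -78 to -57.

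The iPS and leukemia arrays carried markers of their labels, and 2 colony arrays went against theirs. The mean of 12 pluripotency genes on the log2 scale was 9.64 to 9.66 on iPS arrays, 6.46, 9.38 and 9.81 on GFP- replicates 1, 2 and 3, 8.19, 9.64 and 7.04 on GFP+ replicates 1, 2 and 3, and 5.38 to 5.77 on leukemia arrays. The pluripotency factor gene Nanog measured 12.21 to 12.39 in iPS cells, 5.07, 11.35 and 11.85 in GFP- colonies, 9.56, 11.93 and 7.97 in GFP+ colonies and 4.32 to 4.99 in leukemia. The array labelled GFP- replicate 1, from colonies named reprogrammed, had Nanog close to leukemia, and its pluripotency mean was the lowest of the colonies. The pluripotency gene Dppa4 measured 5.85 on it, against 5.73 to 6.20 in leukemia. Other genes of the list stayed higher, as 6 of the 12 lay above all leukemia arrays on it and 2 below. The array labelled GFP+ replicate 2, from colonies named partially reprogrammed, had a pluripotency mean of 9.64, within the iPS range. GFP+ replicate 3 had the next lowest pluripotency mean of the colonies. Counts of called members are therefore also given without each of these arrays. The 13 T lineage genes averaged 10.08 to 10.09 in leukemia and 5.41 to 6.27 on colony arrays, but the T cell receptor gene Cd3e among them had 9.83, 6.13 and 6.04 in GFP- and 8.50, 8.26 and 9.57 in GFP+ colonies, against 11.83 to 11.92 in leukemia. GFP- replicate 1 and GFP+ replicate 3 were the highest colony arrays for Cd3e. Of the 13 T lineage genes 3 showed that order, where 14.3% of all genes did. The part of Cd3e in the members' levels was not tested. Fibroblast genes averaged 8.01 to 8.09 in iPS cells and 6.36 to 7.20 on colony arrays, with the collagen gene Col1a1 at 8.41 to 8.82 and 6.59 to 7.84.

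Interferon-stimulated genes were low and even in iPS cells, intermediate and even in leukemia, and spread widely in the colonies. The mean over the 33 measured members was 6.41 to 6.43 on iPS arrays. It was 8.68, 6.97 and 7.31 on GFP- replicates 1, 2 and 3, 7.64, 8.02 and 9.17 on GFP+ replicates 1, 2 and 3, and 7.39 to 7.46 on leukemia arrays. GFP+ replicate 3 and GFP- replicate 1 were thus the highest arrays, whereas GFP- replicates 2 and 3 lay below leukemia and above iPS cells. In bulk RNA, fewer cells that express the genes and less RNA per cell cannot be told apart.

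The members largely kept 1 order over the colony arrays. GFP+ replicate 3 was the highest of the 6 colony arrays for 25 of 33 members and GFP- replicate 1 for 6. GFP- replicate 2 was the lowest for 19 and GFP- replicate 3 for 10. Both GFP+ replicate 3 and GFP- replicate 1 lay above the other 4 colony arrays for 29 members, where 14.3% of all genes showed that order, and both lay below them for 0 members, where 14.9% of all genes did. The exceptions among the members were Ifit2, Bst2, Ifitm3 and Trim30a. The range over the 6 colony arrays ran from 0.47 for Trim25 to 4.68 for Sp100, with a median of 2.65 over the members and 0.66 over all genes. The median range within iPS cells was 0.25 and within leukemia 0.18, against 0.19 and 0.20 over all genes.

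**Figure D2:**
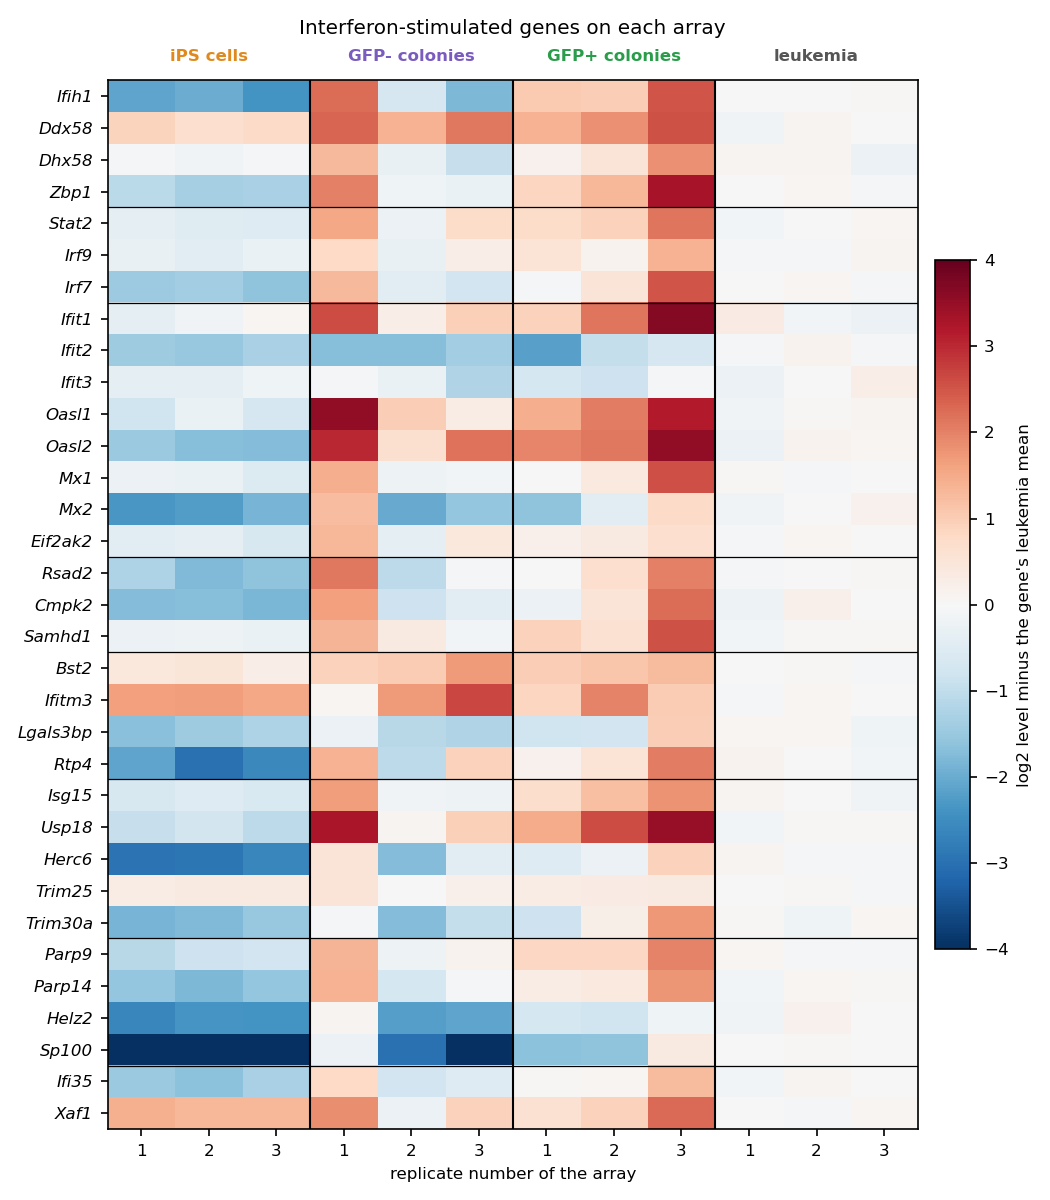
Log2 level of 33 members on each array minus the gene's own leukemia mean, grouped by role, with 1 column per array. Red is higher and blue is lower than the leukemia mean, with full colour at 4 and beyond. GFP+ replicate 3 and GFP- replicate 1 are red in most rows and iPS columns are blue in most, with Ddx58, Bst2, Ifitm3, Trim25 and Xaf1 among the rows that are red in iPS cells.

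Each colony group was set against leukemia to ask which members moved beyond the spread between arrays. In GFP- colonies 3 of 33 members rose and 1 fell at a limma adjusted p under 0.05, which is 9.09% and 3.03% of the members, where 9.02% of all genes were called higher and 12% lower. In GFP+ colonies 7 rose and 1 fell, which is 21.2% and 3.03%, where 9.6% of all genes were called higher and 12.3% lower. The share called higher in GFP- colonies was near that of all genes. The members' median difference was 0.32 in GFP- colonies and 0.92 in GFP+ colonies, against -0.01 and -0.04 over all genes. All 3 GFP- arrays lay above all leukemia arrays for 5 members (16.4% of all genes) and below them for 3 (20.9%), and all 3 GFP+ arrays lay above for 20 (18.1%) and below for 2 (23.8%). Both comparisons use the same leukemia arrays.

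Single arrays decided several of these counts. Without GFP+ replicate 2, 6 members were higher and 1 was lower in GFP+ colonies (9.58% and 11.9% of all genes), with a median of 1.03. Without GFP+ replicate 3, 3 members were higher and 1 was lower in GFP+ colonies (9.56% and 11.9% of all genes), with a median of 0.35, and 3 were higher and 3 lower in GFP- colonies (10.5% and 13.1%). Without GFP- replicate 1, 15 were higher and 2 lower in GFP+ colonies (13.5% and 15.9%). Without any 1 leukemia array 3 were higher in GFP+ colonies (6.73%, 6.76% and 6.74% of all genes), and without leukemia replicate 2 none was lower. Without any 1 iPS array 4 were higher there (8.31%, 8.32% and 8.32%). An array outside a comparison enters only the spread that all groups share, so leaving it out kept the differences and changed their SE. Without GFP- replicate 1 or any 1 iPS array the GFP+ median was still 0.92. Without GFP- replicate 1, Oasl1 differed by 2.23 ± 0.37 in GFP+ colonies.

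GFP- replicate 1 also set the direction of the GFP- median. Without it the median was -0.16, and 3 members were higher and 4 lower (13% and 14.2% of all genes). The members then lower were Helz2, Ifit2, Mx2 and Sp100, and those higher were Bst2, Ddx58 and Ifitm3. Without both arrays that stood apart, 4 were higher and 13 lower in GFP- colonies (16.1% and 16.8% of all genes), and 15 higher and 6 lower in GFP+ colonies (15.7% and 16.9%). Both arrays held the highest levels of most members, a spread that helped to choose the list, so these counts are descriptions.

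Among the cytosolic sensors, 1 of 4 was called. Ddx58, which encodes the viral RNA sensor RIG-I, measured 9.61, 8.66 and 9.39 on GFP- replicates 1, 2 and 3 and 8.65, 9.11 and 9.83 on GFP+ replicates 1, 2 and 3, against 7.12, 7.39 and 7.30 on leukemia arrays. Every colony array lay above every leukemia array. Ddx58 rose by 1.95 ± 0.29 (3.87-fold) in GFP- colonies with a limma adjusted p of 0.00087, and by 1.93 ± 0.29 (3.8-fold) in GFP+ colonies with an adjusted p of 0.00096. The SE, here and below, uses the spread shared by the 4 groups of 3 arrays. Both calls held in every alternative tried.

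Ifih1, which encodes the related sensor MDA5, split the GFP- group. It measured 9.59, 6.69 and 5.55 in GFP- colonies and 8.41, 8.36 and 9.89 in GFP+ colonies, against 7.33 to 7.42 in leukemia. GFP- arrays fell on both sides of leukemia and GFP+ arrays above it. The difference of -0.09 ± 0.82 in GFP- and of 1.52 ± 0.82 in GFP+ colonies passed no threshold (limma adjusted p = 0.957 and 0.227). Zbp1, a sensor of nucleic acids in the Z conformation, measured 9.42, 7.25 and 7.15 in GFP- and 8.27, 8.74 and 10.72 in GFP+ colonies, against 7.35 to 7.49 in leukemia, with a GFP+ difference of 1.83 ± 0.66 (adjusted p = 0.0739). Dhx58, which encodes LGP2, a partner of these sensors, spanned 5.96 to 8.70 over the colonies, against 6.65 to 6.99 in leukemia, and was not called.

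No measured member of the transcription factor group was called. Stat2, which encodes a transducer of the receptor, measured 9.87, 8.07 and 9.05 in GFP- colonies and 9.05, 9.22 and 10.44 in GFP+ colonies, against 8.21 to 8.38 in leukemia. GFP+ arrays all lay above leukemia, with a difference of 1.26 ± 0.43 (limma adjusted p = 0.0612), and GFP- replicate 2 lay below it. Irf9, the DNA-binding partner of STAT2, differed by 0.26 ± 0.31 in GFP- and 0.70 ± 0.31 in GFP+ colonies. Irf7, a factor that amplifies interferon production, measured 8.88, 7.14 and 6.80 in GFP- colonies and 7.53, 8.09 and 10.08 in GFP+ colonies, against 7.49 to 7.67 in leukemia, so that 1 GFP- array and 2 GFP+ arrays exceeded leukemia.

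The largest called differences were those of Oasl2, Usp18, Ifit1 and Oasl1 in GFP+ colonies. Oasl2, of the oligoadenylate synthetase-like genes, measured 9.94, 7.58 and 9.11 in GFP- colonies and 8.89, 9.05 and 10.47 in GFP+ colonies, against 6.71, 7.07 and 7.01 in leukemia. All colony arrays exceeded all leukemia arrays. Oasl2 rose by 1.95 ± 0.54 in GFP- colonies (3.86-fold, limma adjusted p = 0.0267) and by 2.54 ± 0.54 in GFP+ colonies (5.81-fold, adjusted p = 0.00683). The GFP- call was lost in 6 alternatives, those without GFP- replicate 1, without GFP- replicate 3 or without any 1 leukemia array among them, and the GFP+ call held in all.

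Its neighbour on chromosome 5, Oasl1, whose product restrains Irf7 translation in mouse, measured 9.85, 7.30 and 6.60 in GFP- colonies and 7.75, 8.37 and 9.49 in GFP+ colonies, against 6.17 to 6.41 in leukemia. The colonies did not overlap with leukemia either. Oasl1 rose by 2.23 ± 0.70 in GFP+ colonies (4.68-fold, limma adjusted p = 0.0449), a call lost in 10 alternatives, and differed by 1.61 ± 0.70 in GFP- colonies (adjusted p = 0.139).

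The Ifit genes, neighbours on chromosome 19 that encode RNA-binding antiviral proteins, did not move together. Ifit1 measured 8.37, 6.00 and 6.71 in GFP- colonies and 6.68, 7.90 and 9.41 in GFP+ colonies, against 6.09, 5.63 and 5.52 in leukemia. It rose by 2.25 ± 0.67 in GFP+ colonies (4.75-fold, limma adjusted p = 0.036), a call lost in 9 alternatives. GFP+ arrays lay above leukemia, and GFP- replicate 2 lay within its range. Ifit2 measured 5.10, 5.09 and 5.40 in GFP- colonies and 4.62, 5.84 and 6.13 in GFP+ colonies, against 6.75, 6.93 and 6.72 in leukemia.

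Every colony array lay below every leukemia array for Ifit2. It fell by 1.60 ± 0.31 in GFP- colonies (limma adjusted p = 0.00395) and by 1.27 ± 0.31 in GFP+ colonies (adjusted p = 0.0136), and the GFP+ call was lost in 2 alternatives. Ifit3 differed by -0.51 ± 0.29 in GFP- and -0.53 ± 0.29 in GFP+ colonies and was not called. Ifit1 and Ifit3 held 2 response element cores each in their promoter windows and Ifit2 held none, as printed above. Probe sets of related genes of this kind may pick up RNA of one another.

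The dynamin-like GTPase genes Mx1 and Mx2 and the kinase gene Eif2ak2 were not called. Mx2 measured 8.45, 5.20 and 5.67 in GFP- colonies and 5.60, 6.80 and 7.96 in GFP+ colonies, against 7.08 to 7.37 in leukemia. GFP- replicate 1 and GFP+ replicate 3 lay above leukemia and the other colonies below it. Mx1, which many laboratory strains carry in an inactive form, measured 5.59, 3.96 and 4.05 in GFP- colonies and 4.14, 4.53 and 6.73 in GFP+ colonies, against 4.11 to 4.20 in leukemia, with the same arrays on top. Eif2ak2, which encodes PKR, a kinase that stops translation upon double-stranded RNA, differed by 0.46 ± 0.33 in GFP- and 0.41 ± 0.33 in GFP+ colonies.

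Rsad2 and Cmpk2, neighbours on chromosome 12 that encode the antiviral enzyme viperin and a nucleotide kinase, followed the same order of arrays. Rsad2 measured 9.63, 6.47 and 7.46 in GFP- colonies and 7.55, 8.19 and 9.54 in GFP+ colonies, against 7.49 to 7.57 in leukemia. Cmpk2 measured 9.67, 7.19 and 7.60 in GFP- colonies and 7.81, 8.56 and 10.26 in GFP+ colonies, against 7.84 to 8.23 in leukemia. For both, GFP- replicate 2 lay lowest of the colonies and no call was made. Samhd1, which encodes an enzyme that depletes nucleotides, measured 10.15, 9.15 and 8.69 in GFP- and 9.70, 9.41 and 11.35 in GFP+ colonies, against 8.67 to 8.85 in leukemia. All its GFP+ arrays exceeded leukemia, with a difference of 1.36 ± 0.47 (limma adjusted p = 0.0619).

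Bst2 was among the most even members over the colonies. It measured 8.36, 8.45 and 9.15 in GFP- colonies and 8.43, 8.56 and 8.72 in GFP+ colonies, against 7.41, 7.50 and 7.40 in leukemia. The colonies spanned 0.79 and none overlapped leukemia. Bst2 rose by 1.22 ± 0.18 in GFP- colonies (2.33-fold, limma adjusted p = 0.000869) and by 1.13 ± 0.18 in GFP+ colonies (2.19-fold, adjusted p = 0.00138), and both calls held in every alternative tried.

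Ifitm3, which encodes a membrane protein that blocks viral entry, ran against the order of the other members. It measured 9.79 to 9.90 in iPS cells, 8.31, 9.93 and 10.89 in GFP- colonies, 9.08, 10.21 and 9.23 in GFP+ colonies and 8.14 to 8.31 in leukemia. GFP- replicate 1, high for most members, was the lowest colony array for Ifitm3, and GFP- replicate 3 the highest. The difference from leukemia was 1.48 ± 0.52 in GFP- and 1.28 ± 0.52 in GFP+ colonies (limma adjusted p = 0.071 and 0.112). Ifitm2, of the same family, measured 12.07 to 12.17 in iPS cells, 10.97, 11.50 and 11.96 in GFP- colonies and 11.12, 11.89 and 11.28 in GFP+ colonies, against 9.30 to 9.40 in leukemia, and rose in both colony groups (2.11 ± 0.24 and 2.06 ± 0.24).

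Rtp4, which encodes a receptor transporter protein, measured 9.42, 6.98 and 8.95 in GFP- colonies and 8.20, 8.58 and 10.07 in GFP+ colonies, against 7.92 to 8.16 in leukemia. All its GFP+ arrays exceeded leukemia. Lgals3bp, which encodes a secreted galectin-binding glycoprotein, measured 8.62, 7.75 and 7.64 in GFP- colonies and 8.04, 8.08 and 9.83 in GFP+ colonies, against 8.68 to 8.93 in leukemia. Its GFP- arrays all lay below leukemia, and its dimmer probe set put GFP- replicate 1 above it instead (7.29, 6.79 and 6.41 in GFP- colonies, against 7.16, 7.02 and 7.07 in leukemia). Neither gene was called.

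The ISG15 group had 1 call among its 5 genes. Usp18, which encodes the protease that removes ISG15 and dampens receptor signalling, measured 9.72, 6.57 and 7.41 in GFP- colonies and 7.95, 9.06 and 9.95 in GFP+ colonies, against 6.35, 6.52 and 6.50 in leukemia. All colony arrays exceeded leukemia, GFP- replicate 2 by little. Usp18 rose by 2.53 ± 0.69 in GFP+ colonies (5.77-fold, limma adjusted p = 0.0241), a call lost in 5 alternatives, and differed by 1.44 ± 0.69 in GFP- colonies (adjusted p = 0.177).

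Isg15 itself measured 7.93, 6.13 and 6.06 in GFP- colonies and 6.96, 7.46 and 8.07 in GFP+ colonies, against 6.36, 6.29 and 6.13 in leukemia. GFP- replicates 2 and 3 lay at or below leukemia, and the GFP+ difference was 1.23 ± 0.44 (limma adjusted p = 0.0698). Herc6, which encodes the ligase that attaches ISG15 in mouse, differed by -0.55 ± 0.50 in GFP- and 0.05 ± 0.50 in GFP+ colonies. Trim25, which encodes a ubiquitin ligase that acts on RIG-I, had the narrowest range, at 9.24 to 9.71 over the colonies and 9.16 to 9.27 in leukemia. Trim30a, from a mouse TRIM gene cluster, measured 6.16, 4.48 and 5.29 in GFP- and 5.39, 6.45 and 7.97 in GFP+ colonies, against 6.07 to 6.32 in leukemia.

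Parp9 and Parp14 lie together on chromosome 16 and encode ADP-ribosyltransferase proteins, of which PARP9 pairs with DTX3L. Parp9 measured 7.78, 6.21 and 6.55 in GFP- colonies and 7.24, 7.24 and 8.40 in GFP+ colonies, against 6.37 to 6.48 in leukemia. It rose by 1.22 ± 0.39 in GFP+ colonies (2.33-fold, limma adjusted p = 0.0496), a call lost in 11 alternatives. The probe set shared by Dtx3l and Parp9 measured 9.41, 7.88 and 8.11 in GFP- colonies and 8.33, 8.58 and 9.80 in GFP+ colonies, against 8.63 to 8.66 in leukemia, so its GFP+ arrays fell on both sides of leukemia. Parp14 differed by 0.21 ± 0.49 in GFP- and 0.82 ± 0.49 in GFP+ colonies and was not called.

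Sp100, which encodes a nuclear body protein, had the widest colony range of the members. It measured 4.83, 4.73 and 4.42 in iPS cells, 9.23, 6.49 and 5.14 in GFP- colonies, 7.84, 7.87 and 9.82 in GFP+ colonies and 9.44, 9.52 and 9.44 in leukemia. GFP- replicate 3 was the colony array nearest to the iPS level, and GFP+ replicate 3 exceeded leukemia. The difference was -2.51 ± 0.85 in GFP- and -0.95 ± 0.85 in GFP+ colonies (limma adjusted p = 0.0618 and 0.49). Its next brightest probe set gave 7.88, 6.29 and 6.64 in GFP- colonies and 6.59, 6.95 and 8.58 in GFP+ colonies, against 7.60, 7.47 and 7.56 in leukemia. Helz2, which encodes a nuclear helicase coactivator, measured 8.38, 6.07 and 6.18 in GFP- colonies and 7.58, 7.48 and 8.10 in GFP+ colonies, against 8.13 to 8.46 in leukemia. Without GFP- replicate 1 both fell in GFP- colonies, Sp100 with a difference of -3.65 and Helz2 of -2.16.

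Ifi35, which encodes a leucine zipper protein, and Xaf1, which encodes an antagonist of apoptosis inhibitors, were not called. Ifi35 measured 9.57, 8.02 and 8.27 in GFP- colonies and 8.82, 8.87 and 10.05 in GFP+ colonies, against 8.68 to 8.89 in leukemia. Its dimmer probe set was flatter, at 6.79, 6.39 and 6.38 in GFP- colonies, 6.75, 6.56 and 6.51 in GFP+ colonies and 6.47, 6.28 and 6.37 in leukemia. Xaf1 measured 9.04, 6.96 and 8.11 in GFP- colonies and 7.80, 8.09 and 9.44 in GFP+ colonies, against 7.12 to 7.26 in leukemia, and GFP+ replicate 3 and GFP- replicate 1 were its highest arrays.

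**Figure D3:**
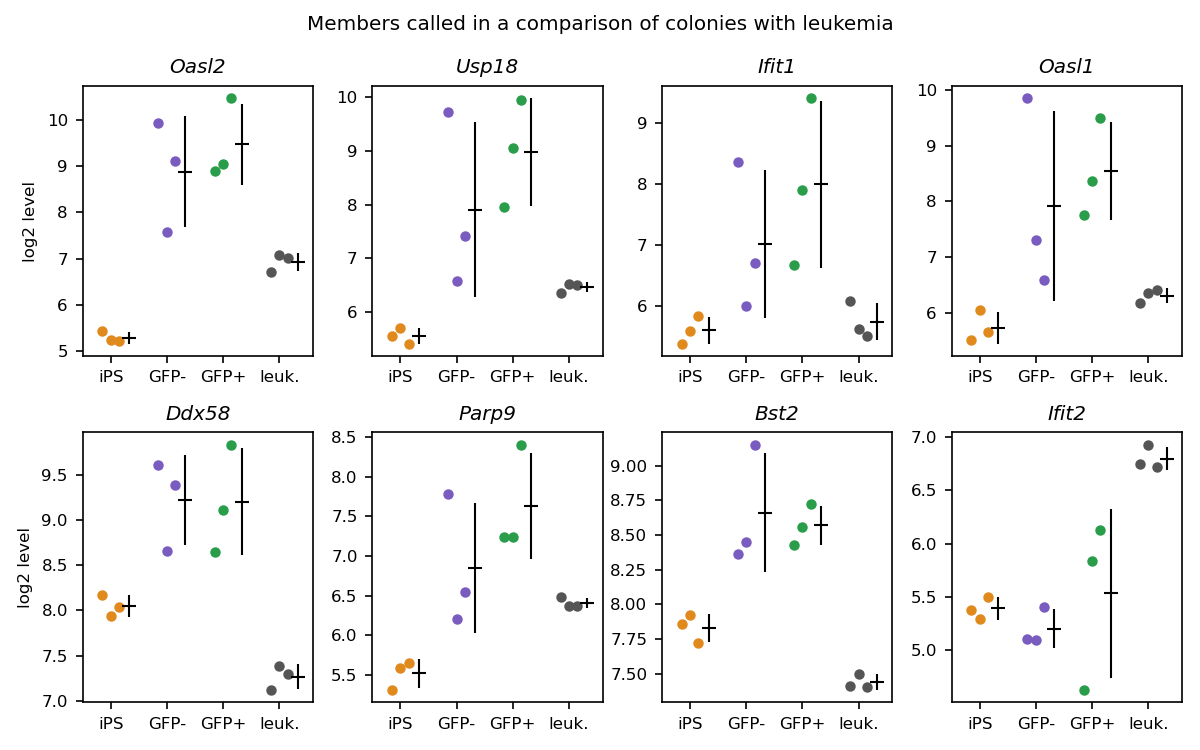
Log2 level on each array of the 8 members called in a comparison of colonies with leukemia, with 1 point per array and the mean ± SD of 3 arrays per group; the axes do not start at 0. Ddx58, Bst2, Oasl1, Oasl2 and Usp18 lie above leukemia on all 6 colony arrays and Ifit2 lies below it.

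**Figure D4:**
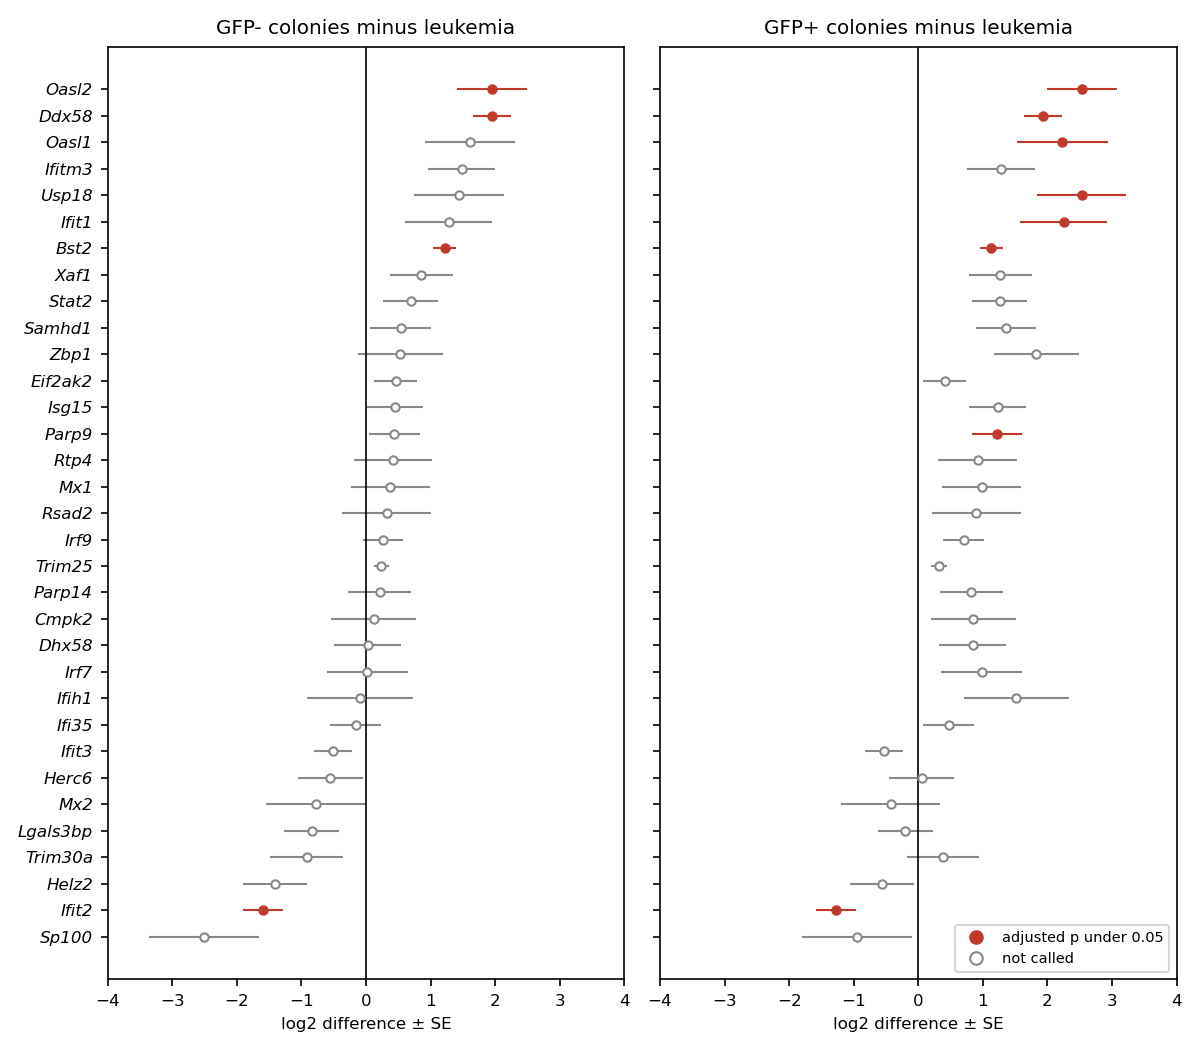
Log2 difference from leukemia ± SE (limma, spread shared by 4 groups of 3 arrays) of 33 members, in GFP- colonies on the left and GFP+ colonies on the right. Coloured points have an adjusted p under 0.05, namely 4 on the left and 8 on the right.

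Between GFP- and GFP+ colonies no member was called. Limma called 0 of 33 members, where 0% of all genes were called, and 1 member and 1413 of 22180 genes had an unadjusted p under 0.05. Of the members 28 were lower and 5 higher in GFP- colonies, with a median difference of -0.60, against 0.03 over all genes. The differences ran from -1.61 ± 0.82 for Ifih1 to 0.20 ± 0.52 for Ifitm3. The order of the members placed 1 array of each group at the top. No member had all 3 GFP- arrays below or above all 3 GFP+ arrays, where 2.23% and 4.31% of all genes had.

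Array choice decided these counts as well. Without GFP- replicate 1, 6 members were lower and 0 higher in GFP- colonies (3.46% and 1.13% of all genes), namely Helz2, Ifih1, Isg15, Parp9, Sp100 and Usp18. Without both this array and GFP+ replicate 3, 10 were lower and 0 higher (3.5% and 1.23%), with Ifih1 at -2.27, Sp100 at -2.04 and Usp18 at -1.51. These arrays held the highest levels of most members, and the spread between colony arrays helped to choose the list. The counts without them are therefore descriptions. Without GFP+ replicate 3 alone the median was -0.13 with 0 members called (0.00451% of all genes lower), without GFP+ replicate 2 it was -0.80 with 0 called (0.00902%), and without GFP- replicate 2 it was -0.28.

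In iPS cells most members lay below every other group, a feature that helped to choose the list. Of 33 members 28 were lower in iPS cells than in leukemia, with a median difference of -0.90, against -0.03 over all genes. All 3 iPS arrays lay below all 3 leukemia arrays for 25 members (28.7% of all genes) and above them for 5 (27.8%). They lay below all 6 colony arrays for 24 (6.5%), below all GFP- arrays for 24 (11.8%) and below all GFP+ arrays for 28 (17.1%). The median difference of iPS cells was -1.17 from GFP- colonies and -1.90 from GFP+ colonies.

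The members furthest below leukemia in iPS cells were Sp100 (-4.81), Herc6 (-2.82), Rtp4 (-2.56), Helz2 (-2.45), Ifih1 (-2.17) and Mx2 (-2.15). Rtp4 measured 5.93, 5.03 and 5.45 in iPS cells, against 7.92 to 8.16 in leukemia. Against GFP+ colonies the lowest was Oasl2, with 5.44, 5.23 and 5.21 in iPS cells and a difference of -4.18. The members with all iPS arrays above leukemia were Ifitm3 (1.63), Xaf1 (1.36), Ddx58 (0.78), Bst2 (0.39) and Trim25 (0.34). Stat2 and Irf9, whose products carry the signal of the receptor, were lower by smaller amounts (-0.47 and -0.33).

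The interferon genes had close list means in the 4 groups, and single genes differed in spread. The 19 measured ligand genes averaged 5.14 to 5.16 on iPS arrays, 5.09 to 5.29 on GFP- arrays, 5.16 to 5.20 on GFP+ arrays and 5.18 to 5.22 on leukemia arrays. Their median range over the 6 colony arrays was 0.50, against 0.66 over all genes, and 4 of the 19 exceeded that value. The widest was Ifnab, which encodes a type I interferon, with 5.05, 3.85 and 4.24 in GFP- colonies, 4.04, 4.42 and 5.01 in GFP+ colonies and 4.34 to 4.88 in leukemia. It was the 1 ligand gene with GFP- replicate 1 and GFP+ replicate 3 above the other colonies, as for most members. Ifnb1, an early type I interferon of infected cells, measured 3.96, 3.69 and 4.02 in iPS cells, 4.09, 3.96 and 4.30 in GFP- colonies, 4.11, 3.75 and 3.90 in GFP+ colonies and 4.09, 4.04 and 4.44 in leukemia. Its groups overlapped, and with no detection values used here a low level cannot be told from none. Of the 19 genes 1 fell (5.26%, against 12% of all genes) and 0 rose (9.02% of all genes) in GFP- colonies. The 1 was the interferon gamma gene Ifng, by 0.34 ± 0.11 (limma adjusted p = 0.0464). In GFP+ colonies limma called 0 of the 19, with 0 at an unadjusted p under 0.05. There 9.6% of all genes were called higher and 12.3% lower.

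Genes of interferon receptors and signalling, phosphatase and repressor genes among them, were lower in the colonies wherever they were called. Of 17 measured genes 6 fell (35.3%, where 12% of all genes did) and 0 rose (9.02% of all genes) in GFP- colonies. In GFP+ colonies 4 fell (23.5%, against 12.3%) and 0 rose (9.6%). The median difference was -0.69 in GFP- and -0.11 in GFP+ colonies. Ifnar2, a chain of the type I receptor, measured 7.85, 7.42 and 7.26 in GFP- colonies and 7.13, 7.11 and 8.51 in GFP+ colonies, against 8.87 to 9.01 in leukemia. It fell by 1.41 ± 0.32 in GFP- and by 1.34 ± 0.32 in GFP+ colonies (limma adjusted p = 0.00942 and 0.0119). The gene of the other receptor chain, Ifnar1, lay at 8.24 to 8.87 on all arrays and was not called.

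Ptpn6, which encodes a phosphatase of blood cells, had the largest difference of these genes (-2.79 ± 0.25 in GFP- and -2.57 ± 0.25 in GFP+ colonies). Irf2, which encodes a repressor of interferon responses, fell in GFP- colonies by 1.56 ± 0.47 (limma adjusted p = 0.0381). Jak1 (-0.68 ± 0.35 and -0.03 ± 0.35) and Tyk2 (0.23 ± 0.22 and 0.31 ± 0.22) were not called in GFP- or GFP+ colonies. Irf1, which encodes a factor induced by interferon gamma, fell in GFP- colonies by 0.89 ± 0.22 (adjusted p = 0.0156) and differed by -0.49 ± 0.22 in GFP+ colonies (adjusted p = 0.149).

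Upstream sensors and adaptors were called in both directions. Of 14 measured genes 1 rose (7.14%, where 9.02% of all genes did) and 4 fell (28.6%, against 12%) in GFP- colonies. In GFP+ colonies 2 rose and 2 fell (14.3% each), shares near those of all genes (9.6% and 12.3%). Tlr3, which encodes an endosomal receptor of double-stranded RNA, measured 7.33, 5.51 and 5.22 in GFP- colonies and 6.77, 6.79 and 8.94 in GFP+ colonies, against 4.50 to 4.67 in leukemia, and rose in GFP+ colonies by 2.93 ± 0.62 (limma adjusted p = 0.00656). Aim2, which encodes a sensor of cytosolic DNA, rose by 1.50 ± 0.19 in GFP- and 1.69 ± 0.19 in GFP+ colonies. Ikbke, which encodes a kinase that activates interferon regulatory factors, fell by 1.69 ± 0.49 in GFP- colonies. Mavs, which encodes the adaptor of RIG-I, was not called (0.27 ± 0.21 in GFP- and 0.63 ± 0.21 in GFP+ colonies).

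Other interferon-induced genes, 45 measured genes outside the members, shared the order of the colony arrays. GFP+ replicate 3 and GFP- replicate 1 both lay above the other 4 colony arrays for 30 of the 45, where 14.3% of all genes showed that order. The same held for 10 of 14 upstream sensors and adaptors, 10 of 17 receptor and signalling genes, 5 of 9 stratified epithelium markers, 3 of 17 macrophage and myeloid markers and 1 of 19 ligand genes. Of the 45, 5 rose and 4 fell in GFP- colonies (11.1% and 8.89%) with a median difference of -0.08, shares near those of all genes (9.02% and 12%). In GFP+ colonies 8 rose and 0 fell (17.8% and 0%, against 9.6% and 12.3% of all genes), with a median of 0.23. Parp12, which encodes another ADP-ribosyltransferase, rose by 2.63 ± 0.39 in GFP- and 3.46 ± 0.39 in GFP+ colonies. Oas1g, of the oligoadenylate synthetase family, rose in GFP+ colonies by 3.16 ± 0.92 (limma adjusted p = 0.0325), with 5.37, 7.09 and 9.28 there and 3.50, 4.04 and 4.72 in leukemia. The immunoproteasome subunit genes Psmb8 (-2.76 ± 0.64) and Psmb9 (-2.77 ± 0.73) fell in GFP- colonies and differed by -1.29 ± 0.64 and -1.06 ± 0.73 in GFP+ colonies, where they were not called.

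Markers of other cells moved with the members on some arrays and not on others. The 17 macrophage and myeloid genes averaged 6.21 to 6.25 on iPS arrays, 6.61, 7.52 and 6.11 on GFP- replicates 1, 2 and 3, 6.38, 6.43 and 8.85 on GFP+ replicates 1, 2 and 3, and 7.38 to 7.44 on leukemia arrays. The macrophage complement gene C1qb measured 6.31, 9.11 and 5.42 in GFP- colonies and 6.19, 6.64 and 10.87 in GFP+ colonies, against 6.26 to 6.63 in leukemia. Csf1r, the receptor gene of macrophage growth, measured 8.98, 8.83 and 6.00 in GFP- colonies and 8.50, 6.77 and 9.46 in GFP+ colonies, against at most 8.10 in leukemia. GFP+ replicate 3 had the highest mean of the markers and of the members, with 15 of the 17 markers above all leukemia arrays and 2 below. GFP- replicate 1, high for the members, had 3 markers above and 12 below, Csf1r among those above. GFP- replicate 2, with the lowest member mean of the colonies, had 8 above, C1qb and Csf1r among them, and 7 below, such as the myeloid adaptor gene Tyrobp at 7.47, against 8.83 to 9.48 in leukemia. Limma called 1 marker higher and 3 lower in GFP- colonies (5.88% and 17.6%, against 9.02% and 12% of all genes), with a median difference of -0.49. In GFP+ colonies 1 was higher and 2 were lower (5.88% and 11.8%, against 9.6% and 12.3% of all genes), with a median of -0.25. The gene called higher in both was Cd68, a lysosomal protein gene (1.69 ± 0.23 and 1.44 ± 0.23). The part of these cells in the members' levels was not tested.

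Stratified epithelium markers stood high on the same 4 colony arrays that had the highest member means. Their mean over 9 genes was 6.34 to 6.39 on iPS arrays, 9.77, 6.91 and 6.06 on GFP- replicates 1, 2 and 3, 9.42, 9.29 and 9.75 on GFP+ replicates 1, 2 and 3, and 5.62 to 5.78 on leukemia arrays. Krt14, a keratin gene of basal epithelium, measured 12.84, 9.52 and 5.54 in GFP- colonies and 12.07, 12.36 and 12.93 in GFP+ colonies, against 5.16 to 5.73 in leukemia. Within the GFP+ group the mean of these markers spanned 9.29 to 9.75 and that of the members 7.64 to 9.17. Single markers differed in spread there, from Krt17 (11.80 to 12.11) to Dsg3 (9.88 to 11.44). The share of epithelium in the members' levels was not tested either.

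The 6 measured markers of plasmacytoid dendritic cells, which make interferon, averaged 6.26 to 6.38 on iPS arrays, 5.64, 6.46 and 6.18 on GFP- replicates 1, 2 and 3, 6.41, 6.38 and 7.21 on GFP+ replicates 1, 2 and 3, and 5.66 to 5.86 on leukemia arrays. GFP+ replicate 3 was the highest array and GFP- replicate 1 the lowest, while both were high for the members. The order of these means largely followed Klk1. Its range over the colony arrays was 9.34, against a median of 0.73 over the 6 genes, so the means do not describe the other markers. Klk1, a kallikrein protease gene, measured 3.72, 9.12 and 7.40 in GFP- colonies and 8.55, 8.85 and 13.06 in GFP+ colonies, against 4.03 to 4.29 in leukemia, and rose in GFP+ colonies by 6.02 ± 1.34 (limma adjusted p = 0.00858). The chemokine receptor gene Ccr9 fell by 0.94 ± 0.15 in GFP- and by 0.88 ± 0.15 in GFP+ colonies (adjusted p = 0.00101 and 0.0016), and no other gene of the list was called. Siglech, a defining gene of these cells, lay at 4.86 to 5.45 on all arrays. The part of these cells in the members' levels was not tested.

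**Figure D5:**
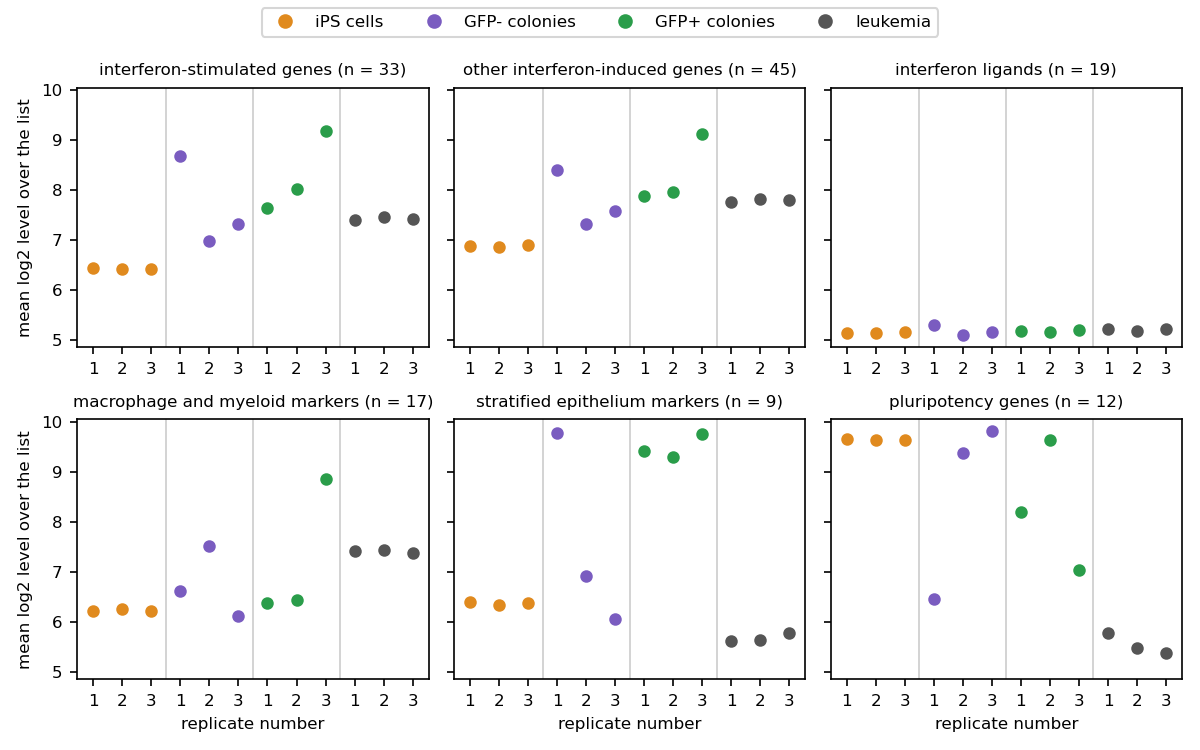
Mean log2 level on each array over 6 gene lists, with 1 point per array and the groups in order on the x axis. The members and the other interferon-induced genes peak at GFP+ replicate 3 and GFP- replicate 1, and the mean of the ligands stays between 5.09 and 5.29.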

How the data were processed

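Expression was measured on 12 Affymetrix arrays. The values are log2 levels per probe set as the authors deposited them, for 41345 probe sets, summarised with RMA per the submitters' processing notes. RMA equalises array distributions, so a shift shared by most genes is lost. No software version or filter is named in the labels, detection values were not used, and precision rests on 3 arrays a group.

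The platform annotation gave 1 symbol to 23521 probe sets, several to 1814 and none to 16010. Each gene took its brightest probe set with 1 symbol. Group means of all 12 arrays were fitted with limma 3.58.1 (R 4.3.3), with 1 estimate of spread per gene shared by the 4 groups. The members' median SD was 0.87 in GFP+ colonies, 1.08 in GFP- colonies, 0.14 in iPS cells and 0.1 in leukemia. The shared spread therefore describes no single group well, a limit on every SE and p-value here. A gene was called where its p, adjusted by Benjamini-Hochberg over all 22180 genes, was under 0.05. These steps were also run on simulated data in which genes varied independently. The members here shared an order of arrays, so that run gives no error rate for them. Comparisons with iPS cells were not tested. Alternatives changed the samples fitted, block, weights, normalization, probe sets, dim genes, spread, single arrays and the motif.

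The members and lists were chosen with earlier results of these data known. Named were all members, set marker and pathway genes, and the 2 called genes with the largest difference per comparison in each pathway list. Of marker lists, means and defining genes are given (Ptprc had no such probe set). Ifitm2, C1qb, Siglech, Klk1, Ccr9, Cd68, Tyrobp, Dppa4, Ifnab, Krt17 and Dsg3 were added after their values were seen.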

Additional observations from a re-analysis of the deposited data

How the results depend on the processing

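The calls of single members kept their direction, while counts moved with the arrays used. Over the 12 called differences, 238 values under the alternatives gave 195 that stayed called, 43 that did not and 0 that changed sign. Fitting only the 2 groups, the block, the other spread estimate, leaving out dim genes or leaving out an array outside the comparison cannot change a difference. The absence of sign changes was therefore in part fixed in advance. Members called higher in GFP+ colonies than in leukemia numbered 7, and 11 with only the 2 groups compared in the fit, 16 with array weights, 15 without both arrays that stood apart and 3 to 15 leaving out 1 array. Those lower numbered 1, and 0 with only the 2 groups compared, 3 with array weights, 6 without both arrays and 0 to 2 leaving out 1 array. With dim genes left out 0 were lower, but Ifit2, the 1 lower member, was itself removed as dim and not tested there. In GFP- colonies 3 were higher than in leukemia, and 5 with array weights and 2 to 4 leaving out 1 array. Those lower numbered 1, and 8 with array weights, 13 without both arrays and 1 to 4 leaving out 1 array. With dim genes left out the 2 lower members were Helz2 and Sp100, and Ifit2 was again not tested. In GFP- against GFP+ colonies 0 were lower, and 3 with array weights, 10 without both arrays and 0 to 6 leaving out 1 array. With array weights the GFP- median turned to -0.18. Over all genes, array weights called 3859 higher and 4329 lower in GFP+ colonies, 4230 and 4443 in GFP- colonies, and 405 and 910 between the colony groups. Leaving out an array outside a comparison kept the differences and moved counts only through the shared estimate of spread. The cause of the other moves was not tested. With the replicate number as a block, 4 members were higher in GFP+ colonies, without Ifit1, Oasl1 and Parp9, and no other member call changed. Deviations of same-numbered arrays from their group means correlated in both directions (r between -0.38 and 0.32 over genes). With 3 arrays a group this cannot tell whether the numbers pair anything, and no pairing is known. The looser motif GAANNGAA was in 55.6% of the members with a promoter and 22.71% of genes. Signal over background was not measured here.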
